A study of Mus musculus with 82 samples.

Results

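The 10 genes described here encode the transcription factors of the FOS family (Fos, Fosb, Fosl1 and Fosl2), the JUN family (Jun, Junb and Jund) and the EGR family (Egr1, Egr2 and Egr3). They were chosen by name, with earlier results of these data known. All 10 of them, of 55401 genes in the table, passed the filter on low counts at both time points. RNA was sequenced in 82 libraries of primary smooth muscle cells from the aorta of C57BL/6 mice (aVSMC), to ask how receptors for epidermal growth factor, angiotensin II and thromboxane act together on transcription. Before the stimuli, every culture, controls included, was kept for 24 h in medium without serum or supplements, and the stimuli were given in the same bare medium. They were EGF (10 µg/L), AngII (10 nM) and U46619 (1 µM), a stable agonist of the thromboxane receptor. After 24 h incubation there were 7 groups with n = 6 cultures, 1 from each of 6 mice. Besides the untreated control, they received each agent alone, EGF with either of the others (EGF+AngII and EGF+U46619), or all 3 agents. After 48 h there were 6 groups, without the one given all 3 agents, in 2 sequencing batches of 20 libraries. U46619 and EGF+U46619 were sequenced in one batch (called EGF/U46619 here), AngII and EGF+AngII in the other (EGF/AngII), and each batch had controls and EGF of its own, with n = 5 cultures per group and batch. Cultures of 1 batch with the same replicate number form a culture set, of which there were 10. The labels give these sets only 5 mouse numbers, although by the methods every replicate came from another animal. These were passaged cells, and their growth medium before the starvation itself held EGF, insulin, hydrocortisone and serum, so no culture was new to EGF. No library was taken before 24 h. The values are therefore late levels, and the early peak for which many of these genes are known was not measured.

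FOS proteins cannot pair with each other and bind DNA as heterodimers with JUN proteins, which can also pair among themselves. The dimers form the transcription factor AP-1. EGR proteins are zinc finger factors that bind GC-rich sites. All 3 families include immediate early genes, switched on within minutes of receptor activation through MAP kinases, serum response factor and its partners. Most transcripts of such genes are short-lived. Not every gene of these families behaves in this way. In vascular smooth muscle, AP-1 and EGR1 are known for their part in the response to injury and growth factors.

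Libraries held 16483529 to 20818809 counts after 24 h and 19936925 to 33916114 after 48 h. Cultures of the 2 times were sequenced in different batches, so that batch and time cannot be told apart. Among the libraries, 2 stood apart. The residuals of the EGF+AngII+U46619 library of mouse 3 at 24 h, after the group and mouse means were removed, had an SD of 0.762 (log2) against a median of 0.293. The control library of replicate 4 of the EGF/AngII batch had 0.651 against 0.181. Smooth muscle markers (2 of 9, Tagln and Cnn1, are listed at 0 along with all genes of chromosome 9) had a summed mean level of 1846 to 9612 FPM (counts scaled to a library size corrected by TMM) per mouse at 24 h, most of it Acta2. Myh11, the smooth muscle myosin heavy chain, was 1.66 FPM in mouse 3 and 8.07 FPM in mouse 4, against 25.9 to 130 FPM in the others. Endothelial markers (1 of 7, Cdh5, is listed at 0) summed to 4.25, 4.05 and 43.3 FPM in mice 1 to 3 and to 577, 340 and 1613 FPM in mice 4 to 6, with Pecam1 at 0.36, 0.73 and 4.09 against 303, 175.1 and 838 FPM. Fibroblast markers were highest in mouse 3, at 2021 FPM against 319 to 695 FPM in the other mice. In bulk RNA, more cells of a type and more RNA per cell cannot be told apart.

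Upstream sequence is shown for the genes that changed in at least 1 incubation and have a window in RefSeq, namely the 250 bases before a start of Jun, Junb and Egr2. RefSeq windows (GRCm38.p6) were found for 7 of the 10 genes, all but Fosl1, Egr1 and Egr3. Jun lies at chr4:95049034-95052222 (minus strand) and its window is chr4:95052223-95052472. Junb lies at chr8:84974484-84978718 (minus strand) and its window is chr8:84978749-84978998. Egr2 lies at chr10:67535475-67542188 (plus strand), and of its 5 windows the one at chr10:67537619-67537868 is shown, which lies between annotated exons of the gene and ends 1 base before one. None of the windows shown overlaps an exon of the GENCODE annotation. Each sequence reads 5′ to 3′ on the strand of its gene, and capitals mark a match to a motif searched on both strands.
Jun: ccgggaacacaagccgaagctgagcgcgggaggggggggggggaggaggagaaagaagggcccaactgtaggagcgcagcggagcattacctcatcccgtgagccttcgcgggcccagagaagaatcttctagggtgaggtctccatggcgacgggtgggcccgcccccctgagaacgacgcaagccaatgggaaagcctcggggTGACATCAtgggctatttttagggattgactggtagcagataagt
Junb: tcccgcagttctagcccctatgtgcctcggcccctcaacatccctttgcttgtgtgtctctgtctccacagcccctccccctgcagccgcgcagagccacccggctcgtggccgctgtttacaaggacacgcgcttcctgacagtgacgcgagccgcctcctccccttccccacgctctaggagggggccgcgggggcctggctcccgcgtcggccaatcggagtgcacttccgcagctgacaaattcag
Egr2: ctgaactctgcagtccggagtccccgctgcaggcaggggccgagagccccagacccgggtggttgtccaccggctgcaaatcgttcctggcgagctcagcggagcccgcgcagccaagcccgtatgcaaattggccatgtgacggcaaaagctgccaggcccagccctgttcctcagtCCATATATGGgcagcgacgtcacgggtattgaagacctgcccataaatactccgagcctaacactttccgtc

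The Jun window holds TGACATCA, an AP-1-like octamer, 45 to 38 bases before the start, which 2.93% of 32851 windows of the same length hold. The Egr2 window holds a CArG box, the site bound by serum response factor, 72 to 63 bases before the start, which 1.47% of windows hold. The Junb window holds none of the 5 motifs. The other motifs searched were TGANTCA, the AP-1 site, in 6.75% of windows, TGACGTCA, the cAMP response element, in 1.55%, and GCGNGGGCG, the EGR site, in 4.7%. Among the windows not shown, those of Fosb and Fosl2 hold the EGR site, and other windows of Egr2 hold a CArG box too. Those at chr10:67537620-67537869 and chr10:67537680-67537929 overlap the window shown and hold the same box. The one at chr10:67537316-67537565 does not overlap it. A match is a description of the letters and no measure of binding.

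In control cultures the order of the levels ran from Jund to Fosb. Per kb of exon, the median after 24 h was 56.0 FPM for Jund, 53.0 for Junb, 21.9 for Egr1, 18.5 for Fosl2, 15.4 for Jun, 5.08 for Egr2, 4.78 for Fos, 1.68 for Egr3, 1.5 for Fosl1 and 0.603 for Fosb (n = 6). After 48 h it was 59.1 for Jund and 44.7 for Junb, followed by Jun at 14.7, Egr1 at 14, Fosl2 at 13, Fos at 4.62, Egr2 at 2.67, Fosl1 at 2.33, Egr3 at 1.07 and Fosb at 0.289 (n = 10). The ranges of neighbours in this order overlapped for every neighbouring pair at both times. Jun stood above Egr2 in 6 of 6 cultures and Fos above Egr3 in 6 of 6, while Egr2 and Fos, or Egr3 and Fosl1, changed places between mice (3 of 6 each). Some of these counts are uncertain, since exons overlap on the opposite strand between Fosl1 and Ccdc85b, Jun and Junos, Junb and Prdx2, and Jund and Gm11175. The counting options that the authors list include none for the strand.

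**Figure D1:**
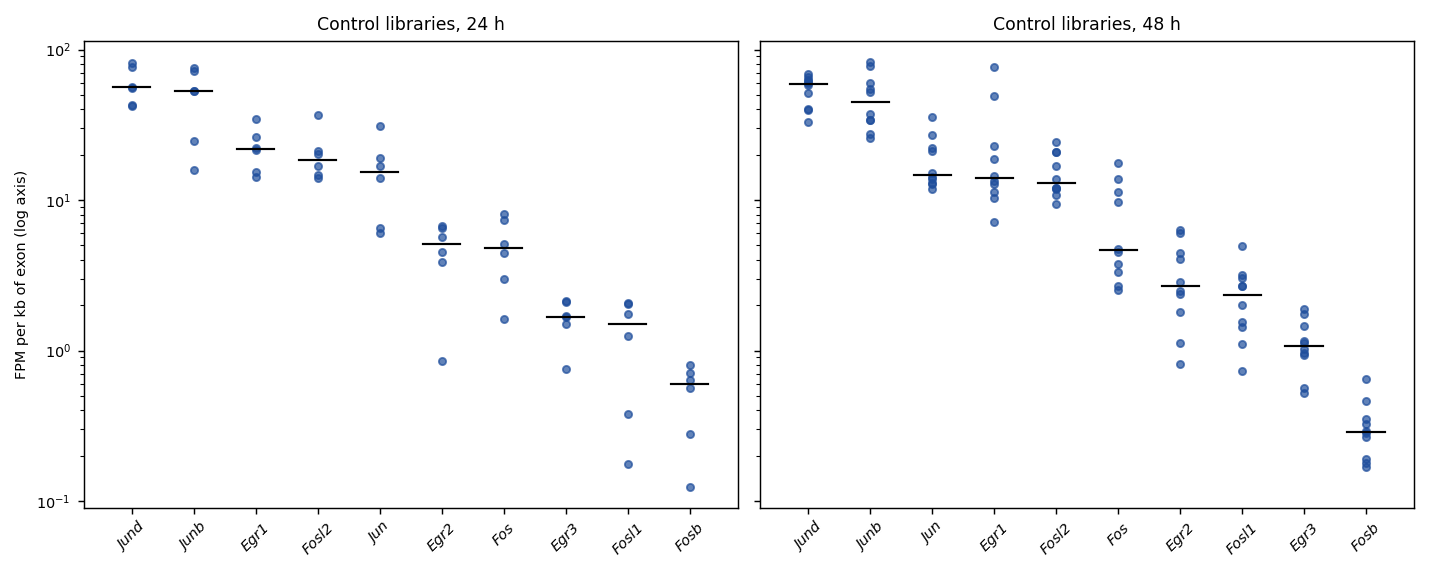
Level of each gene in the control libraries, in FPM per kb of exon (log axis), at 24 h (6 cultures) and 48 h (10 cultures). Each point is a culture and the line is the median, in the order of the medians, from Jund at 56.0 and 59.1 down to Fosb at 0.603 and 0.289.

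After 24 h incubation with U46619, Fosl1, Junb and Jun rose and Egr3 fell, so that 4 of the 10 genes were DEG, while 26.8% of all 14528 genes tested were (12.9% higher and 13.9% lower). A gene is called a DEG here when its FDR is under 0.05 in both edgeR and DESeq2, fitted to all genes with mouse and treatment as terms, and 1 group compared has a mean of at least 5 FPM. The median log2-fold change of the 10 genes was 0.37, against −0.06 over all genes, and with this many DEG the count alone does not set these families apart. With EGF+U46619 Fosl1, Junb and Jun rose (3 of 10, against 32.1% of all genes, 16.3% higher and 15.8% lower), and so they did with EGF+AngII+U46619 (33.4% of all genes, 17.7% higher and 15.7% lower). Incubation with EGF+AngII raised Egr2 (1 of 10, against 3.13% of all genes, 1.54% higher and 1.59% lower), while DESeq2 alone gave 3 of the 10 and 9.12% of all genes. With EGF alone 0 of 10 genes were DEG (0.0275% of all genes), although 4 had an unadjusted p under 0.05 in edgeR and 1, Egr2, passed in DESeq2 alone (1.82% of all genes). With another test of edgeR, the likelihood ratio test, 1 of the 10 passed both tools. The authors, who used the same thresholds, reported many more DEG with EGF at this time than the fit used here. AngII alone gave 0 DEG among these genes or any others (0% of all genes), with 0 of the 10 at an unadjusted p under 0.05 in edgeR and 0 in DESeq2 alone. All these comparisons share the control libraries.

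**Figure D2:**
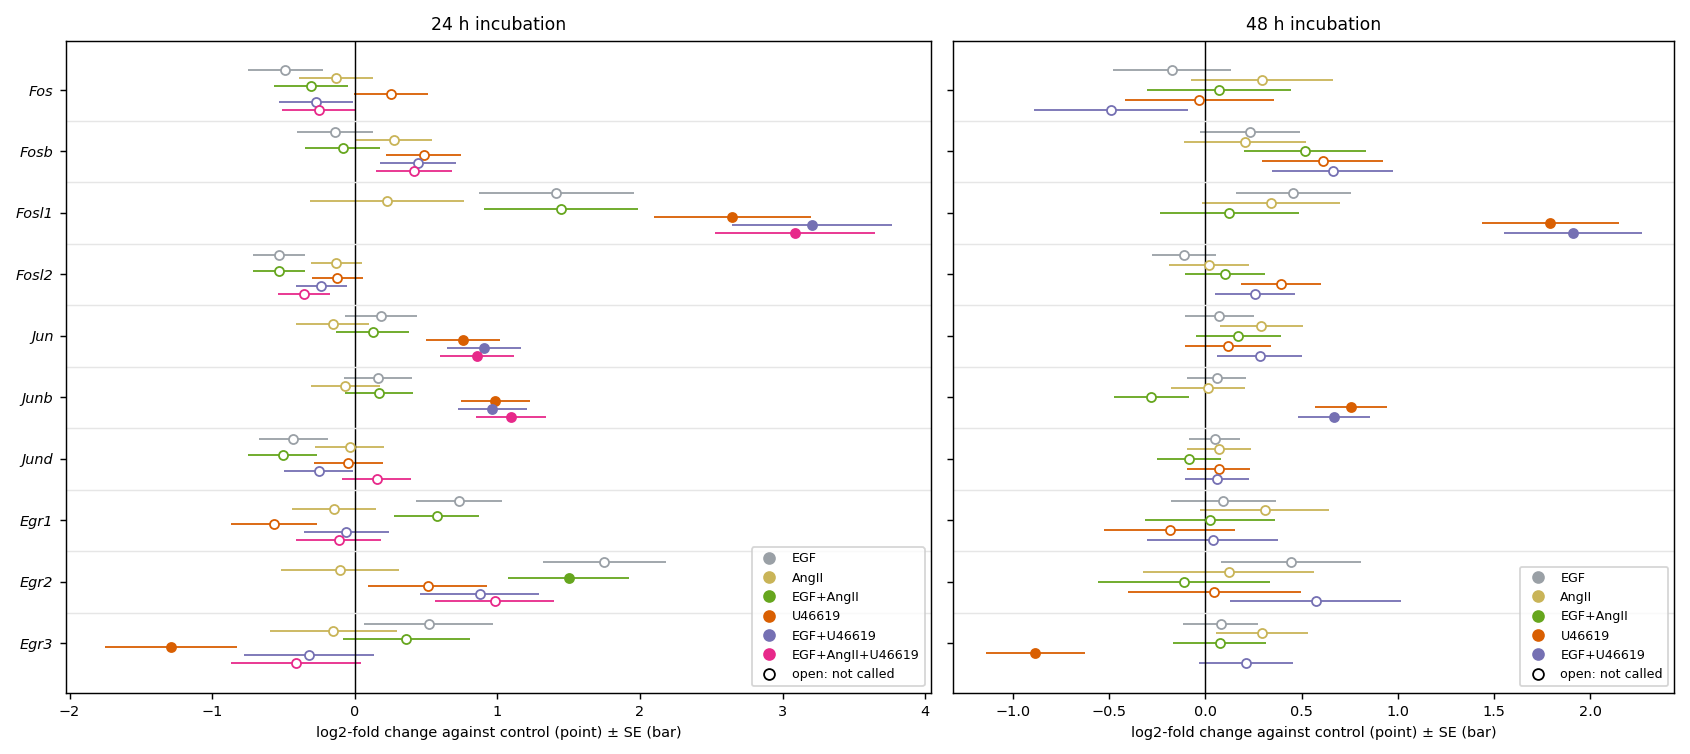
Log2-fold change against control for each gene (point, with its SE as the bar) after 24 h and 48 h. Filled points are DEG, and Fosl1 has the largest values with U46619, 2.65, 3.21 and 3.09 at 24 h and 1.79 and 1.91 at 48 h.

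Fosl1, which encodes FRA-1, a FOS protein that lacks a strong activation domain, had the largest change of the 10 genes. In the controls it was 0.359 to 4.20 FPM with a median of 3.04. With U46619 it was 9.59 to 25.7 FPM with a median of 12.8, so that the lowest U46619 culture was above the highest control. Its log2-fold change was 2.65 ± 0.55 (SE), a 6.26-fold rise (edgeR FDR = 0.000476, DESeq2 FDR = 6.58e-06). Within mice the rise was 2.51 ± 1.19 (mean ± SD, log2(FPM + 0.5), n = 6), in 6 of 6 mice (exact two-sided sign-flip test, p = 0.031, the smallest that 6 pairs allow). EGF+U46619 gave 10.6 to 29.9 FPM with a median of 23.0, again without overlap with the controls, and a log2-fold change of 3.21 ± 0.56 (edgeR FDR = 4.42e-05). EGF+AngII+U46619 gave 3.32 to 30.9 FPM with a median of 19.4, where the value below the highest control is the library of mouse 3 that stood apart, and a log2-fold change of 3.09 ± 0.56 (edgeR FDR = 5.53e-05). These 3 calls held when any single mouse was left out. EGF gave 1.92 to 17.9 FPM with a median of 5.10, within the range of the controls for 2 of the 6 cultures, and the log2-fold change of 1.41 ± 0.54 did not pass (edgeR FDR = 0.159, DESeq2 FDR = 0.101). Compared within mice, Fosl1 was higher with EGF in 6 of 6, by 0.04 to 2.60. AngII gave 0.457 to 6.40 FPM with a median of 2.68, on both sides of the control median.

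The other FOS genes gave no call at 24 h. Fosl2, which encodes FRA-2, was the most abundant of the family and was lower with EGF, at 114 to 172.9 FPM with a median of 133, than in the controls, at 135 to 355 FPM with a median of 179.3. It was lower in 6 of 6 mice, by 0.48 ± 0.39 (mean ± SD, log2(FPM + 0.5); exact two-sided sign-flip test, p = 0.031), but the fit across all genes did not call it (log2-fold change −0.53 ± 0.18, edgeR FDR = 0.126). With EGF+AngII the value was the same, −0.53 ± 0.18 (edgeR FDR = 0.0737, DESeq2 FDR = 0.0346), and without the library that stood apart it passed both tools (edgeR FDR = 0.0258). Fos, the founding member, was 3.83 to 19.1 FPM in the controls and 3.71 to 24.9 FPM with U46619, and its medians over the 7 groups lay between 11.2 and 16.3 FPM. Fosb had group means of 3.11 to 4.63 FPM, all under 5 FPM, and so could not be called by the rule. Without mouse 3 it passed with EGF+AngII+U46619 (log2-fold change 0.66, edgeR FDR = 0.033).

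**Figure D3:**
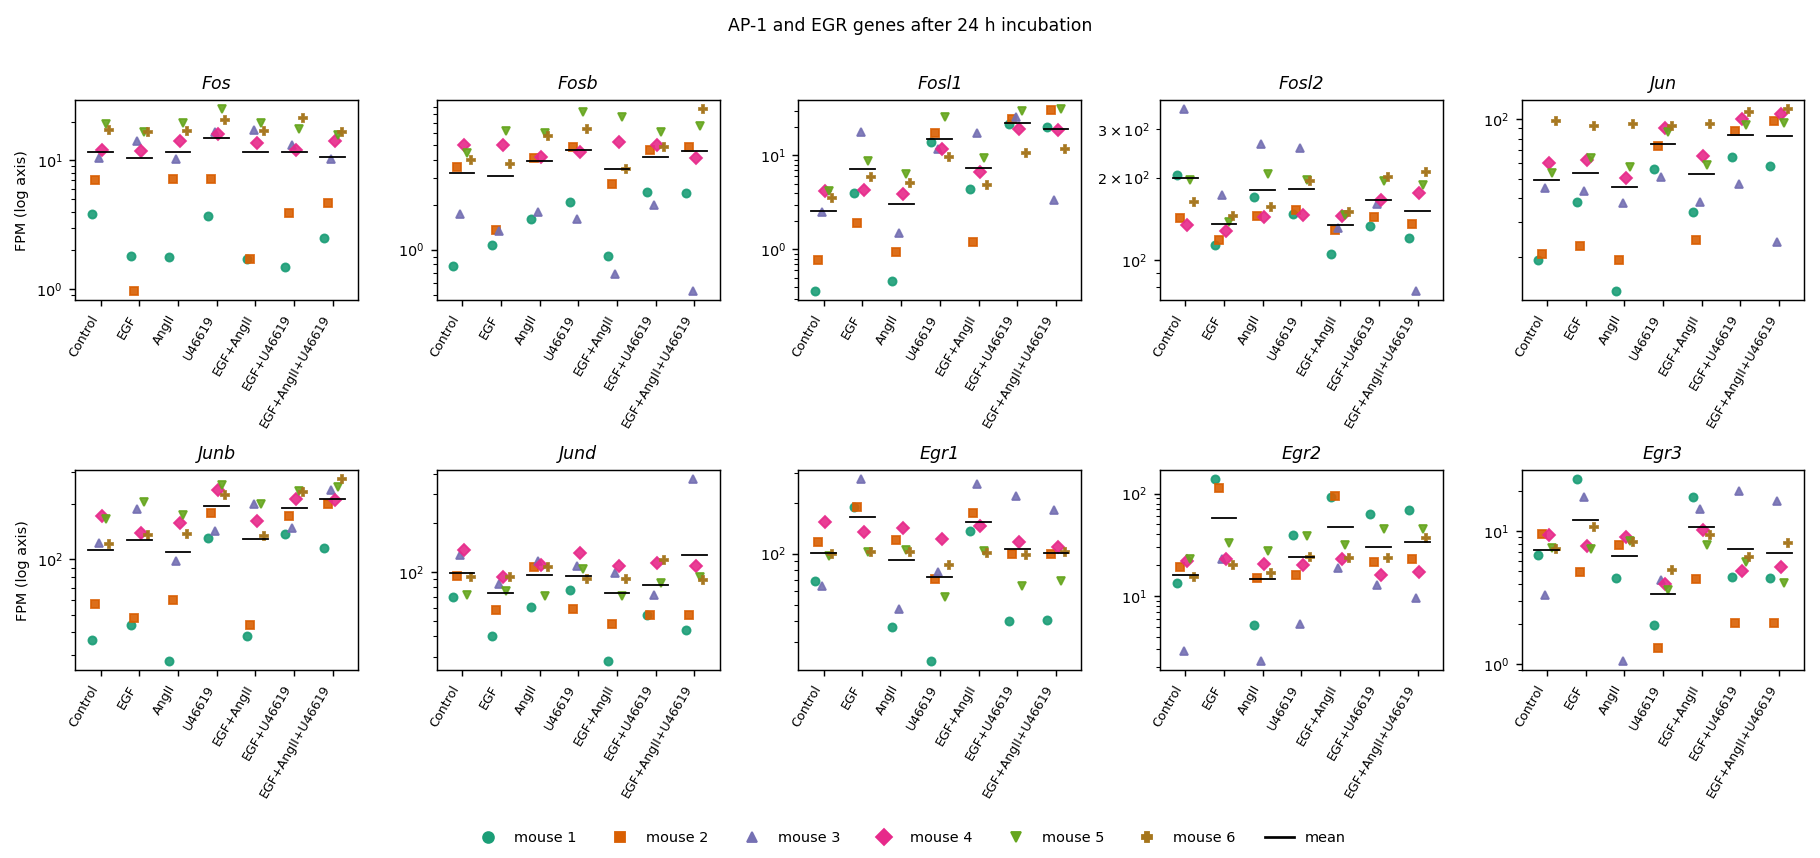
FPM (log axis) of the 10 genes in the 42 libraries after 24 h incubation, by group, with 1 symbol per mouse and the mean as a line. All Fosl1 points with U46619 and EGF+U46619 lie above the highest control, 4.20 FPM, and Egr2 with EGF reaches 138 and 113 FPM in mice 1 and 2.

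Among the JUN genes, Junb and Jun rose with U46619 while Jund gave no call. Junb, a JUN protein often counted as a weak activator, was 36.3 to 173.2 FPM in the controls with a median of 122 and 131 to 256 FPM with U46619 with a median of 202. The groups overlapped, with 4 of 6 U46619 cultures above every control, but within mice Junb was higher in 6 of 6 (0.95 ± 0.65, mean ± SD, log2(FPM + 0.5), exact two-sided sign-flip test, p = 0.031). The log2-fold change was 0.99 ± 0.24 (edgeR FDR = 0.00236) with U46619, 0.97 ± 0.24 (FDR = 0.00206) with EGF+U46619 and 1.09 ± 0.24 (FDR = 0.000559) with EGF+AngII+U46619, and these calls held without any single mouse. Jun, the strongest activator of the family, was 19.3 to 98.5 FPM in the controls with a median of 49.0 and 51.0 to 92.9 FPM with U46619 with a median of 79.8. These groups overlapped, since the control of mouse 6 was above every U46619 culture, and Jun was higher in 5 of 6 mice. Its log2-fold change of 0.76 ± 0.26 passed (edgeR FDR = 0.0219), but the call was lost without mouse 1, 2, 4 or 5 (log2-fold change 0.56 to 0.81, edgeR FDR 0.058 to 0.0997). With EGF+U46619 Jun was 46.8 to 109 FPM with a median of 90.4 and a log2-fold change of 0.91 ± 0.26 (edgeR FDR = 0.00555), which held without any single mouse. With EGF+AngII+U46619 the change was 0.85 ± 0.26 (edgeR FDR = 0.00847), and it was lost without mouse 2 (0.55, edgeR FDR = 0.0699). Jund, a broadly expressed member, was 70.1 to 136 FPM in the controls and 59.1 to 130 FPM with U46619. In the EGF+AngII+U46619 library of mouse 3 that stood apart it was 370 FPM, against 43.7 to 109 FPM in the other 5 mice. With EGF alone, the log2-fold change of Junb was 0.16 ± 0.24 and that of Jun 0.18 ± 0.26, and neither passed. Jund passed in 1 fit, as lower with EGF+AngII when the library that stood apart was left out (−0.50, edgeR FDR = 0.0407, against −0.51 ± 0.24 and FDR = 0.188 with it).

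Of the EGR genes, Egr3 fell with U46619, while Egr1 and Egr2 gave no call there, with log2-fold changes of −0.57 and 0.51. Egr3 was 3.31 to 9.44 FPM in the controls with a median of 7.40 and 1.32 to 5.12 FPM with U46619 with a median of 3.80. The groups overlapped, with 2 of 6 U46619 cultures below every control, and Egr3 was lower in 5 of 6 mice, the exception being mouse 3. The log2-fold change was −1.29 ± 0.46 (edgeR FDR = 0.0302), and the call was lost without mouse 1, 2, 4 or 5 (−1.32 to −0.90, edgeR FDR 0.0656 to 0.182). With EGF+U46619 Egr3 was 2.05 to 20.1 FPM with a median of 5.42 and a log2-fold change of −0.32 ± 0.46, the highest value again being mouse 3, without which it fell by 0.89 and passed (edgeR FDR = 0.0431). The same held for EGF+AngII+U46619, where the change of −0.41 ± 0.46 became −0.89 without mouse 3 (edgeR FDR = 0.0399). Egr1, the best known member, was 64 to 154.4 FPM in the controls, 102 to 274 FPM with EGF and 23.2 to 122 FPM with U46619. Neither difference passed, at log2-fold changes of 0.73 ± 0.30 (edgeR FDR = 0.189) and −0.57 ± 0.30.

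Egr2, known for its part in myelination and T cell tolerance, was 2.89 to 22.8 FPM in the controls with a median of 17.3. With EGF it was 19.9 to 138 FPM with a median of 27.9, and with EGF+AngII 18.7 to 95.2 FPM with a median of 27.6. In both groups 5 of 6 cultures were above every control. The log2-fold change was 1.75 ± 0.43 with EGF (edgeR FDR = 0.071, DESeq2 FDR = 0.00955) and 1.5 ± 0.42 with EGF+AngII (edgeR FDR = 0.048, DESeq2 FDR = 0.0105), and the difference between these incubations gave no call. Without mouse 6 the value with EGF passed both tools (2.00, edgeR FDR = 0.0319). Without mouse 1, 2, 3 or 5 the call with EGF+AngII was lost (1.25 to 1.71, edgeR FDR 0.11 to 0.323). With EGF+U46619 Egr2 was 12.7 to 62.9 FPM and with EGF+AngII+U46619 9.58 to 69.7 FPM, at log2-fold changes of 0.88 ± 0.42 (edgeR FDR = 0.093) and 0.98 ± 0.42 (edgeR FDR = 0.0565) that passed only without mouse 4 (1.21, edgeR FDR = 0.0369, and 1.31, edgeR FDR = 0.0217).

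The difference between EGF and control varied widely between mice. Within mice, EGF minus control for Egr2 on the scale of log2(FPM + 0.5) was 3.33, 2.52 and 2.79 in mice 1, 2 and 3 and 0.06, 0.52 and 0.37 in mice 4, 5 and 6. In mouse 3 this was a step from 2.89 FPM, by far the lowest control, to 22.9 FPM, close to the highest control of 22.8 FPM. Egr1 differed by 1.44, 0.68 and 2.09 in mice 1 to 3 and by −0.21, 0.08 and 0.03 in mice 4 to 6. For Fosl1 the values were 2.39, 0.93 and 2.60 in mice 1 to 3 and 0.04, 0.97 and 0.66 in mice 4 to 6. Egr3 differed by 1.82, −0.87 and 2.28 in mice 1 to 3 and by −0.24, −0.04 and 0.53 in mice 4 to 6, so that mouse 2 differed in sign from mice 1 and 3. The endothelial markers given above are the ones that differed between the same mice, from 43.3 FPM or less in mice 1 to 3 to 340 FPM or more in mice 4 to 6, and their part in the result was not tested. No test was made between these mice, since the numbers are not groups of the design.

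**Figure D4:**
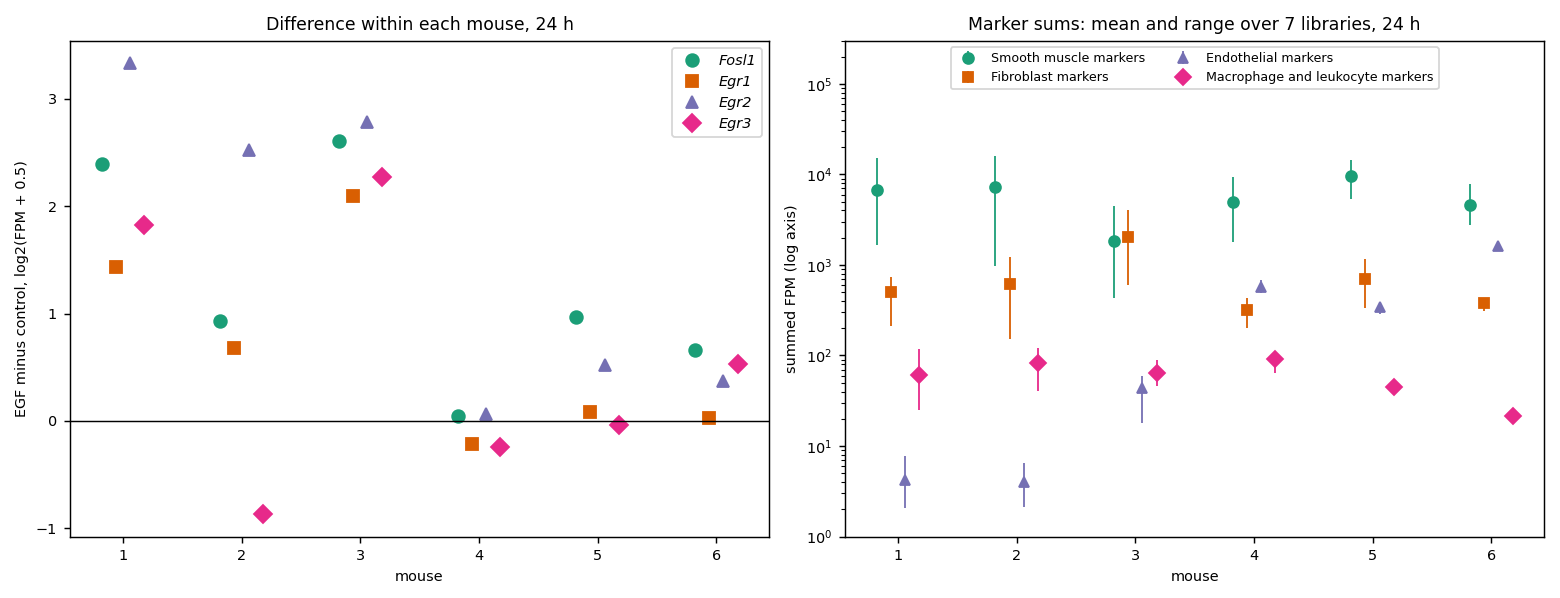
Left, EGF minus control within each mouse at 24 h for Fosl1 and the EGR genes, as log2(FPM + 0.5). Right, summed FPM (log axis) of 4 marker lists per mouse, as the mean with the range over 7 libraries. Egr2 differs by 2.52 or more in mice 1 to 3 and by 0.52 or less in mice 4 to 6.

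Setting incubations against each other asked whether the receptors differ in their effect. U46619 against EGF at 24 h called 4 of the 10 genes, with Junb higher and Egr1, Egr2 and Egr3 lower with U46619 (11.1% of all genes tested were called, 6.01% higher and 5.13% lower). The log2-fold change was 0.82 ± 0.24 for Junb (edgeR FDR = 0.0217), −1.30 ± 0.31 for Egr1 (FDR = 0.00443), −1.24 ± 0.42 for Egr2 (FDR = 0.0446) and −1.80 ± 0.46 for Egr3 (FDR = 0.0088). All 4 calls were lost without mouse 1, where Egr1 was −0.90 (edgeR FDR = 0.0527) and Egr3 −1.36 (FDR = 0.0829). Egr2 was also lost without mouse 2 or 3 (−1.06 to −0.87 over these mice, FDR 0.116 to 0.29) and Junb without mouse 2, 4 or 6 (0.62 to 0.85, FDR 0.05004 to 0.148). In DESeq2 alone Fos passed as well (5 of 10, against 12.1% of all genes). Without the library that stood apart 7 genes were called, against 15.2% of all genes, with Fosl1 (1.30, edgeR FDR = 0.048), Fosl2 (0.41) and Fos (0.74) added as higher with U46619. These 3 also passed without mouse 3, where 6 genes were called against 16.5% of all genes. EGF+U46619 against EGF called 2 genes, both higher (12.9% of all genes, 6.75% higher and 6.17% lower), namely Fosl1 by 1.79 ± 0.52 (edgeR FDR = 0.0168) and Junb by 0.80 ± 0.24 (FDR = 0.0215). Fosl1 was lost without mouse 1, 2, 4 or 5 (1.46 to 1.79, FDR 0.0678 to 0.0865) and Junb without mouse 1, 2, 4 or 6 (0.60 to 0.83, FDR 0.0541 to 0.141). Jun passed too without the library that stood apart, without mouse 3 or without mouse 6 (0.74 to 0.84, edgeR FDR 0.0185 to 0.046). Without mouse 3 there were 6 calls in this comparison, against 18.4% of all genes, with Jun and Fosl2 (0.37) higher and Egr1 (−0.92) and Egr3 (−1.18) lower added.

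Adding EGF to U46619 called 0 of the 10 genes and 0% of all genes, with 2 of the 10 at an unadjusted p under 0.05 in edgeR and 0 in DESeq2 alone (0.0551% of all genes). These 2 were Egr3, higher by 0.97 ± 0.46, and Fos, lower by 0.53 ± 0.26. Adding AngII to EGF also called 0 genes (0% of all genes), with 0 at an unadjusted p under 0.05 in edgeR and 0 in DESeq2 alone. The interaction of EGF with U46619, which asks whether both together differ from the sum of their log2-fold changes, called 0 of the 10 genes and 0% of all genes, with 0 in DESeq2 alone (0.0206% of all genes). The 1 gene at an unadjusted p under 0.05 in edgeR was Egr2, with an interaction of −1.38 ± 0.58.

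Fosl1 and Junb also rose, and Egr3 also fell, after 48 h incubation with U46619, with the labelled mouse number as the block. That made 3 of the 10 genes DEG (4.03% of all genes tested, 2.48% higher and 1.55% lower). The Egr3 call was lost with the culture set as the block. In the EGF/U46619 batch Fosl1 was 1.48, 5.41, 2.25, 10.1 and 5.49 FPM in the controls of culture sets 1 to 5 and 9.69, 17.4, 19.4, 25.9 and 12.5 FPM with U46619. It was higher in 5 of 5 sets, and the control of set 4 was the only one above the lowest U46619 culture. The log2-fold change over both batches was 1.79 ± 0.36 (edgeR FDR = 0.00339) and within the sets of the batch 1.85 ± 0.73 (mean ± SD, n = 5, exact two-sided sign-flip test, p = 0.062, the smallest that 5 pairs allow). EGF+U46619 gave 10.0, 19.8, 22.1, 25.3 and 15.4 FPM and a log2-fold change of 1.91 ± 0.36 (edgeR FDR = 0.00107). Both calls held when any single culture set or the control library that stood apart was left out. Junb was 59.8, 120, 85.6, 138 and 190 FPM in the controls of these sets and 164.7, 154.1, 177.9, 193 and 201 FPM with U46619, higher in 5 of 5 sets. Its log2-fold change was 0.76 ± 0.19 (edgeR FDR = 0.0162), which was lost without set 3 of the EGF/U46619 batch (0.71, FDR = 0.0886). With EGF+U46619 it was 154.6, 171.3, 170, 191 and 147.9 FPM with a change of 0.67 ± 0.19 (edgeR FDR = 0.0235), lost without set 1, 2, 3 or 4 of that batch (0.61 to 0.70, FDR 0.053 to 0.117). These 2 genes were the DEG with EGF+U46619 (2 of 10, against 6.85% of all genes, 3.84% higher and 3.01% lower).

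Egr3 was 4.94, 5.10, 2.29, 2.47 and 4.5 FPM in the controls of the EGF/U46619 batch and 3.07, 3.22, 1.94, 3.84 and 1.56 FPM with U46619, lower in 4 of 5 sets with overlapping ranges. Over both batches its log2-fold change was −0.88 ± 0.26 (edgeR FDR = 0.0402), but within the EGF/U46619 batch alone, with the culture set as the block, it was −0.48 (edgeR FDR = 0.119), and −0.65 with that block over both batches (FDR = 0.0905). The controls of the EGF/AngII batch, which had no U46619 group, were at 7.68, 4.13, 8.33, 4.24 and 6.41 FPM (sets 1, 2, 4, 5 and 6), of which 3 were above every control of the EGF/U46619 batch. With them the control mean was 5.01 FPM, just over the minimum of 5 FPM that a call needs. It was 3.86 FPM in the controls of the EGF/U46619 batch alone, against 2.73 FPM with U46619. The call was also lost without the control library that stood apart and without set 1, 2, 3 or 5 of the EGF/U46619 batch or set 1, 4 or 6 of the EGF/AngII batch (−0.97 to −0.71, edgeR FDR 0.0639 to 0.169). With EGF+U46619 Egr3 was 5.16, 8.08, 3.98, 6.80 and 4.98 FPM, above the U46619 culture of the same set in 5 of 5 sets. The difference of 1.09 ± 0.28 between these incubations had an unadjusted p of 0.000453 in edgeR but did not pass over all genes (edgeR FDR = 1, DESeq2 FDR = 0.0917). In this comparison 0% of all genes were called, and 0.00688% in DESeq2 alone, and 1 of the 10 genes, Egr3, was at an unadjusted p under 0.05 in edgeR.

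In the EGF/U46619 batch alone, with the culture set as the block, Jun and Fosl2 joined the calls. With U46619 Jun changed by 0.47 (edgeR FDR = 0.00559) and Fosl2 by 0.51 (FDR = 0.00313), and with EGF+U46619 by 0.63 (FDR = 0.000462) and 0.38 (FDR = 0.0156), where Egr3 was called as higher too (0.60, FDR = 0.0368). That gave 4 calls with U46619 and 5 with EGF+U46619, in a fit that called 21.9% and 26.6% of all genes. Over both batches with the culture set as the block, Jun (0.40, FDR = 0.00985) and Fosl2 (0.48, FDR = 0.00369) passed with U46619, and Jun (0.57, FDR = 0.0003) and Fosl2 (0.35, FDR = 0.0265) with EGF+U46619. That fit gave 4 calls in each incubation and called 10.6% and 14.9% of all genes. With the labelled mouse number as the block Jun and Fosl2 did not pass (0.12 ± 0.22 and 0.39 ± 0.21 with U46619), although Fosl2 did without set 1 of the EGF/AngII batch (0.51, edgeR FDR = 0.0338). Jun was 40.7, 70.5, 38.0, 48.5 and 45.2 FPM in the controls of that batch and 60.7, 72.1, 68.3, 74.7 and 54.9 FPM with U46619, higher in 5 of 5 sets. In the EGF/AngII batch the controls were 113, 68.0, 86.5, 41.3 and 43.7 FPM.

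**Figure D5:**
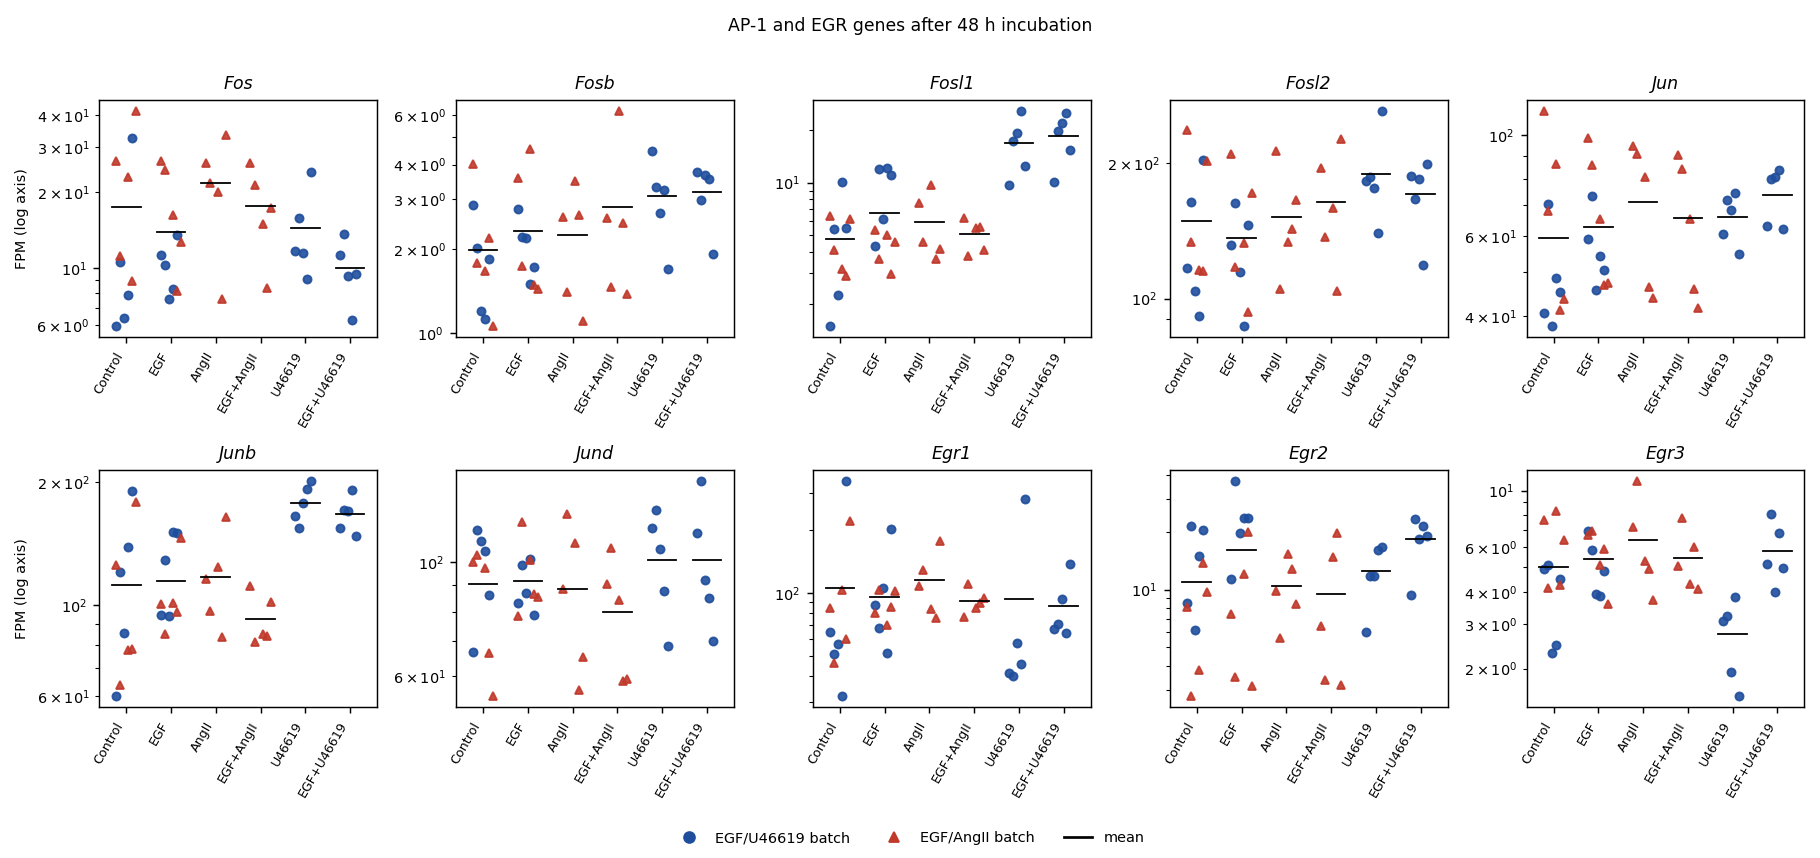
FPM (log axis) of the 10 genes in the 40 libraries after 48 h incubation, by group, with the sequencing batch as the symbol and the mean over cultures as a line. Fosl1 with U46619 lies between 9.69 and 25.9 FPM and with EGF+U46619 between 10.0 and 25.3 FPM, and 1 of the 10 controls, at 10.1 FPM, reaches that range.

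Among the 10 genes, EGF, AngII and EGF+AngII called 0 each after 48 h, like 0% of all genes, and in each 0 of the 10 had an unadjusted p under 0.05 in edgeR and 0 passed in DESeq2 alone. Fosl1 with EGF nevertheless moved differently in the batches. It was 4.28, 12, 6.18, 12.1 and 11.0 FPM in the EGF/U46619 batch, above the control of the set in 5 of 5 by 0.97 ± 0.42 (exact two-sided sign-flip test, p = 0.062). In the EGF/AngII batch it was 5.33, 3.60, 5.01, 2.97 and 4.52 FPM with EGF against 6.44, 4.07, 3.15, 2.90 and 6.20 FPM in the controls, higher in 2 of 5 sets. Egr2 with EGF was 11.3, 37.0, 19.8, 23.7 and 23.7 FPM against 8.47, 21.6, 6.12, 15.0 and 20.5 FPM in the EGF/U46619 batch, higher in 5 of 5 sets. In the EGF/AngII batch it was higher in 3 of 5 sets. The difference between the batches was not tested. Endothelial markers averaged 14.2 to 801 FPM per set in the EGF/U46619 batch and 17.9 to 1672 FPM in the EGF/AngII batch, and their part in it was not tested. Egr1 was spread most widely, from 32.0 to 342 FPM over the 10 controls, the highest being set 5 of the EGF/U46619 batch. Set 5 also had the highest Egr1 with U46619, 281 FPM against 40.2 to 57.4 FPM in the other 4 sets.

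Direct comparisons at 48 h called Fosl1 and Junb as higher with U46619 present. EGF+U46619 against EGF called Fosl1 (1.45 ± 0.35, edgeR FDR = 0.0124) and Junb (0.61 ± 0.19, FDR = 0.0495), 2 of 10 against 4.81% of all genes (2.62% higher and 2.2% lower). Junb was lost without any of 9 of the 10 culture sets (0.56 to 0.64, FDR 0.0569 to 0.175), all but set 5 of the EGF/U46619 batch, and Fosl1 without set 3 of that batch (1.34, FDR = 0.0641). U46619 against EGF called 3 of 10 (3.21% of all genes, 1.91% higher and 1.31% lower), with Fosl1 (1.33 ± 0.35, edgeR FDR = 0.0264) and Junb (0.70 ± 0.19, FDR = 0.0293) higher and Egr3 lower (−0.96 ± 0.25, FDR = 0.027). Each of these was lost when 1 of several culture sets was left out. For Fosl1 these were sets 2, 3 and 4 of the EGF/U46619 batch and 2, 5 and 6 of the EGF/AngII batch (1.13 to 1.47, FDR 0.05003 to 0.0994). For Junb they were sets 1 to 4 of the former and 5 and 6 of the latter (0.65 to 0.78, FDR 0.0505 to 0.116), and for Egr3 sets 1, 2, 3 and 5 of the former (−0.98 to −0.81, FDR 0.0746 to 0.117). Without set 1 of the EGF/AngII batch Fosl2 passed in both comparisons (0.48, FDR = 0.0432, and 0.61, FDR = 0.0133). Each comparison set EGF cultures of both batches against U46619 cultures of the EGF/U46619 batch only. Mean Fosl1 with EGF was 9.12 FPM in the EGF/U46619 batch and 4.29 FPM in the EGF/AngII batch. With U46619 it averaged 17.0 FPM and with EGF+U46619 18.5 FPM. With batch as a further term in the fit, of all these genes Fosl1 was the only DEG against control, at 1.55 with U46619 (edgeR FDR = 0.0285) and 1.67 with EGF+U46619 (FDR = 0.00951). With U46619 Junb was then 0.60 (FDR = 0.0923) and Egr3 −0.66 (FDR = 0.199).

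Markers of other cells moved with U46619 too. Of all genes tested, 12.9% rose and 13.9% fell with U46619 at 24 h, and 15.8% fell with EGF+U46619. At 24 h 5 of 6 fibroblast markers fell with U46619 and 6 of 6 with EGF+U46619, and their sum was 378 to 3148 FPM in the controls and 160.6 to 1890 FPM with U46619. Acta2 and Lmod1 rose with U46619 among the 7 smooth muscle markers tested. Synpo2, of the same list, was not called with U46619 (−0.74 ± 0.33) and fell with EGF+U46619 (−1.03 ± 0.33). The summed mean of the smooth muscle markers was 2883 FPM in the controls and 10680 FPM with U46619. Most of that sum was Acta2, at 2602 and 10253 FPM. Of the 6 endothelial markers tested 0 changed, and their sum was 4.97 to 1653 FPM in the controls and 2.70 to 1435 FPM with U46619. Of 4 macrophage and leukocyte markers tested, Csf1r rose and Lyz2 and Cd14 fell. Among 5 heat shock and handling genes 3 rose (Hspb1, Hsph1 and Dnajb1). At 48 h the fibroblast markers Scara5 and Pi16 fell with U46619, 2 of 6 (1.55% of all genes fell), and 0 markers of the other 4 lists changed. Among the 4 libraries of a culture set in the EGF/U46619 batch, the endothelial sum lay between 734 and 898 FPM in set 1 and between 8.49 and 19.8 FPM in set 5. The part of these in the changes of Fosl1, Junb, Jun and Egr3 was not tested.

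Other genes of the pathways were followed by lists, chosen with earlier results of these data known. Their counts are a description and no test of the pathways. Beside their counts stand the 12.9% of all genes that rose with U46619 at 24 h and 16.3% with EGF+U46619, and 2.48% and 3.84% at 48 h. Among bZIP proteins that pair with AP-1 members, 4 of 11 tested rose with U46619 and 0 fell, where the median log2-fold change of the list was 0.26 against −0.06 over all genes, and 3 rose with EGF+U46619. Maff, a small MAF protein without an activation domain, rose from a median of 85.0 FPM to 211 FPM with U46619 (log2-fold change 1.34 ± 0.27), Atf3, a stress-induced repressor, rose by 1.04 ± 0.29 and Mafg by 0.31 ± 0.10. Of Egr4 and the NAB corepressors 2 were tested and 0 changed at 24 h, and Nab2, a corepressor of EGR proteins, rose with EGF+U46619 at 48 h. Among 19 other immediate early genes tested, 8 rose with U46619 and 6 with EGF+U46619 and 0 fell (list median 0.63 with U46619). Ccn2, a matricellular growth factor, rose by 2.74 ± 0.49 with U46619, Sgk1, a kinase, by 1.77 ± 0.28 and Myc, the transcription factor, by 1.33 ± 0.24. Sgk1 (1.17 ± 0.20) and Myc (0.84 ± 0.17) were DEG at 48 h as well. Of 16 upstream kinases and partners of serum response factor tested, 5 rose with U46619 and 5 with EGF+U46619, and 0 fell. In both incubations Mapk8, Rps6ka2 and Srf were among those that rose. Rps6ka2, a ribosomal S6 kinase, rose by 1.09 ± 0.19 with U46619, and Mapk8 encodes the JUN kinase JNK1.

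Among textbook AP-1 targets, 9 of 14 tested rose with U46619 at 24 h (12.9% of all genes did) and 9 with EGF+U46619 (16.3%), and 0 fell, while 4 more (Mmp3, Mmp10, Mmp13 and Timp1) are listed at 0. The median log2-fold change of the list was 1.36 with U46619, against −0.06 over all genes. Ptgs2, the inducible cyclooxygenase, rose by 3.24 ± 0.71 and Spp1, osteopontin, by 1.93 ± 0.69. The authors had already singled out Spp1 in these libraries, so its place in the list is no independent finding. After 48 h 5 of 14 rose with U46619 (2.48% of all genes) and 7 with EGF+U46619 (3.84%). With EGF 0 genes of the pathway lists were called at either time. The median of the AP-1 targets with EGF at 24 h was 0.84, against −0.03 over all genes, and Spp1 had 2.40 ± 0.72 (edgeR FDR = 0.101). With EGF+AngII Spp1, Ccnd1 and Elk3 rose at 24 h. Of 8 textbook EGR targets tested, 1 rose with U46619 at 24 h, Flt1, which encodes a VEGF receptor, at 1.60 ± 0.26, and 0 fell.

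The genes most like the leading member of each family were found over the 42 libraries at 24 h, as the Pearson correlation of log2(FPM + 0.5) after the mean of the mouse was subtracted. The libraries share mice and treatments, so these values are a description. For Fosl1 they were Kpnb1 (r = 0.963), Xpo5 (0.957), Itprip (0.955), Eif4g1 (0.954) and Rcc1 (0.951), and for Junb they included Ppp1r13l (0.941), Tnfrsf12a (0.937), Odc1 (0.929) and Hbegf (0.928). Within the 10 genes, Fosl1 was most like Jun (0.896) and Junb (0.844), and it was little like Fos (0.169) or Fosl2 (−0.10). For Egr3 the most similar of all genes was Egr1 (0.897), followed by Sema6b (0.846), Aipl1 (0.814), Add2 (0.774) and F2rl3 (0.763), while Egr2 ranked 391 (0.491). Egr3 was negatively related to Fosl2 (−0.59), Fosb (−0.47), Jun (−0.45) and Junb (−0.34).

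Set side by side, the values at both times had the same sign for the genes called with U46619 or EGF+U46619 at 24 h. With U46619 and the labelled mouse number as the block, the log2-fold change at 24 h and 48 h was 2.65 and 1.79 for Fosl1, 0.99 and 0.76 for Junb, and −1.29 and −0.88 for Egr3. Jun was 0.76 at 24 h and 0.12 at 48 h. The 48 h values depend on the block, since with the culture set as the block Jun was 0.40 and Egr3 −0.65, and in the EGF/U46619 batch alone they were 0.47 and −0.48. Both fits called Jun and neither called Egr3. Libraries that share a mouse number across culture sets hardly deviated together (median correlation 0.07), while those of 1 culture set did (median 0.809). With EGF+U46619 Fosl1 was 3.21 and 1.91, Junb 0.97 and 0.67 and Jun 0.91 and 0.28. Egr3 passed with EGF+U46619 in other settings, with opposite signs. It was −0.89 at 24 h without mouse 3 and 0.60 at 48 h in the EGF/U46619 batch alone. Egr2, called with EGF+AngII at 24 h, was not called at 48 h. Within culture sets its 48 h difference from control averaged 0.16, from −1.48 to 1.82, and was higher in 3 of 5 sets. The times were fitted separately, on cultures sequenced in different batches, and the difference between them was not tested.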

How the data were processed

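Poly(A) RNA of 82 aVSMC cultures was sequenced. The authors aligned reads to mm10 with HISAT2 2.1.0 and counted them on exons with featureCounts, multi-mapping reads included, and the deposited values are raw counts per gene. Of 55401 genes 34819 had a count, and 7075 genes of chromosomes 9, X, Y and MT are listed at 0.

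Each time point was fitted to all genes that passed filterByExpr (14653 at 24 h, 15796 at 48 h, 14528 at both) with edgeR 4.0.16 (quasi-likelihood test, TMM) and DESeq2 1.42.0 (Wald test) in R 4.3.3, with the labelled mouse and the treatment as terms. P-values were adjusted over all genes by Benjamini-Hochberg. Differences within mice or culture sets were taken on log2(FPM + 0.5) in 120 comparisons, whose exact p-values are not adjusted. Figures were drawn with Matplotlib 3.10.9.

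Pairing was checked on deviations from the group means. At 24 h 126 of 126 pairs of libraries of 1 mouse correlated above 0.1 (median 0.776). At 48 h 57 of 60 pairs of 1 culture set did (median 0.809), but only 78 of 176 pairs of libraries that share a mouse number across sets (median 0.07).

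Members and lists were chosen with earlier results of these data known. Beside the members, at most 3 called genes per list are described with values, those with the largest change with EGF+U46619 at 24 h, and the 5 genes most like the leading gene of each family, the one called most often. A few genes that this rule selects are not reported here. Intervals and tests cover these cultures only. Alternatives were DESeq2 or edgeR alone, the likelihood ratio test, other size factors and filters, other blocks and sample sets, and leaving out each replicate. Leaving out each library that stood apart was added after seeing the data.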

Additional observations from a re-analysis of the deposited data

Results flagged for a closer look

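Of 150 groups of 5 or 6 cultures tested, 6 held a culture far from the others by Dixon's criterion, which chance passes in about 1 of 20 groups. Junb with EGF+AngII+U46619 at 24 h was lowest in mouse 1, at 115.4 FPM. In mouse 3 at 24 h, Egr2 was lowest among the controls at 2.888 FPM, and Egr3 was lowest both in the control, at 3.308 FPM, and with AngII, at 1.048 FPM. After 48 h, Egr1 with U46619 was highest in culture set 5 of the EGF/U46619 batch, at 281.5 FPM, and Egr2 with EGF+U46619 was lowest in set 1 of that batch, at 9.406 FPM.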

How the results depend on the processing

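In the comparisons that called a gene of the 10, 27 values were called. Their 498 alternative values kept the direction, and 118 of them lost the call. Over all 3588 alternative values of the 10 genes 3422 kept their side of the threshold, 118 lost the call and 48 gained one, and 0 called values changed sign, while some that were called in neither setting did. Of the alternative values of the 55 counts and within-mouse differences, 36 of the 344 that left out a replicate moved beyond the limits set, and of the others 35 moved and 252 did not.

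Without the replicate block for mouse the number of genes called at 24 h was 1 with U46619 (4 with the block), 0 with EGF+AngII (1), 1 with EGF+U46619 (3), 1 with EGF+AngII+U46619 (3), 0 for EGF+U46619 against EGF (2) and 0 for U46619 against EGF (4). At 48 h it was 1 with U46619 (3), 1 with EGF+U46619 (2), 1 for EGF+U46619 against EGF (2) and 0 for U46619 against EGF (3). With the culture set as the replicate block, EGF+U46619 gave 4 and EGF+U46619 against EGF 4, and U46619 kept Fosl1 and Junb, gained Jun and Fosl2 and lost Egr3. The EGF/U46619 batch alone with that block gave 5 with EGF+U46619 and 5 for U46619 against EGF.

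With batch as a further term at 48 h, U46619, EGF+U46619 and EGF+U46619 against EGF gave 1 each and U46619 against EGF 0. With only the groups compared in the fit, the numbers were 0 for EGF+AngII, 1 for EGF+U46619 against EGF and 2 for U46619 against EGF at 24 h, and 1 for U46619, 1 for EGF+U46619, 0 for EGF+U46619 against EGF and 0 for U46619 against EGF at 48 h. EGF at 24 h gave 1 with DESeq2 alone, 1 with the likelihood ratio test and 1 with no filter on low counts, and EGF+AngII 3 with DESeq2 alone. With no filter EGF+U46619 against EGF and U46619 against EGF gave 1 each at 48 h, and with at least 10 counts in every library EGF+U46619 against EGF gave 1 at 24 h. Without the 24 h library that stood apart, EGF+AngII gave 3 and U46619 against EGF 7. With a pseudocount of 5 FPM the difference of Fosl1 with EGF within culture sets at 48 h was 0.53. The causes were not tested.

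Leaving out each mouse at 24 h gave 0 to 1 genes with EGF, 2 to 4 with U46619, 0 to 1 with EGF+AngII, 3 to 4 with EGF+U46619, 2 to 5 with EGF+AngII+U46619, 0 to 6 for EGF+U46619 against EGF and 0 to 6 for U46619 against EGF. Leaving out each culture set at 48 h gave 1 to 3 with U46619, 1 to 2 with EGF+U46619, 0 to 2 for EGF+U46619 against EGF and 0 to 4 for U46619 against EGF. The other comparisons gave 0 in each case.

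Over all genes, the count with U46619 at 24 h was 3893, and 1037 without the block. With U46619 at 48 h it was 585, against 930 with DESeq2 alone, 313 with no filter, 109 without the block, 278 with only the groups compared, 213 with the batch term, 1546 with the culture set block and 3108 in the batch alone. With EGF at 24 h it was 4, against 264 with DESeq2 alone and 0 to 338 without 1 mouse. Among the settings that moved a count by over 1.5 times, other than leaving out 1 replicate, EGF+AngII at 24 h (455) reached 0 and 1495, and the lowest counts were 1826 with EGF+U46619 (4665), 1388 with EGF+AngII+U46619 (4849), 105 for EGF+U46619 against EGF (1877) and 24 for U46619 against EGF (1618). At 48 h EGF+U46619 (995) gave 482 with only the groups compared and 3770 in the batch alone, and the counts spanned 1 to 2019 for EGF+U46619 against EGF (699) and 7 to 1626 for U46619 against EGF (467). Comparisons with 0 calls reached at most 8. Fosb, with group means under 5 FPM, could not be called by the rule at 48 h, also where its edgeR FDR passed (0.75, FDR = 0.0333 with U46619 and the culture set block).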
